A study of Mus musculus with 5 samples.

Results

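The pigment epithelium and visual cycle genes are 10 genes chosen by symbol, *Rpe65*, *Lrat*, *Rdh5*, *Rgr*, *Rrh*, *Ttr*, *Best1*, *Tyr*, *Pmel* and *Dct*, out of 25655 gene symbols in the count table. All 10 passed the filter on low counts, as did 14992 genes in all. RNA was sequenced from whole injured retinas of wildtype C57BL/6 mice 7 days after optic nerve crush (ONC), a pinch of the nerve that injures the axons of retinal ganglion cells. The mice were 8 to 10 weeks old at the crush of the left nerve, and the study used both sexes. Sorbinil, an inhibitor of aldose reductase, was given intraperitoneally at 10 mg/kg from the day before ONC and then daily to 2 of the mice, which are replicates 1 and 3, and DMSO, its vehicle, was given on the same schedule to the other 3, replicates 1 to 3. All 5 retinas had been crushed, so the comparison shows treatment within injured tissue, and uninjured retinas were not analysed here. The study removed 1 Sorbinil replicate after a principal component analysis, and it was not analysed here either.

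The retinal pigment epithelium is the pigmented cell layer that lies against the tips of the photoreceptors. It runs the visual cycle, in which all-trans retinol coming from bleached photoreceptors is stored as a retinyl ester and turned back into 11-cis retinal, and it makes melanin in granules called melanosomes. In a mouse eye the neural retina and the pigment epithelium separate at dissection, and the epithelium is not part of the neural retina.

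None of the 10 genes was called different between Sorbinil and DMSO retinas. What the 10 genes showed was a large spread among retinas of the same group: 8 of them were at least 2-fold higher in DMSO replicate 3 than the mean of DMSO replicates 1 and 2, while 1.14% of all genes tested were, and this count is a description with no test. *Rpe65* is among the 8, and the ratio of each of the other 7 to it varied by at most 1.60-fold over the 5 retinas. Grouping the 8 by that step builds in part of this likeness. *Rrh* and *Best1* did not share the pattern of the 8.

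Total counts ran from 56096541 to 90288552 per retina, and levels are given as CPM, a gene's counts relative to the library's total count after TMM scaling. The labelled tissue was checked against its markers, and 0 of the 15 rod, 9 cone, 10 Müller glia, 8 bipolar and 8 ganglion cell markers were at 0 counts in any retina. The same held for the 10 members, so this check does not separate neural retina from tissue carried along with it. Sorbinil replicate 1 stood apart from the other 4 retinas. Relative to the DMSO mean, the median log2 level there was -1.46 over the 10 Müller glia markers, -1.23 over the 8 bipolar cell markers and 0.56 over the 15 rod markers, while in Sorbinil replicate 3 these medians were 0.04, -0.04 and -0.32. Because fewer cells of a type and less RNA per cell cannot be told apart in bulk tissue, none of the values here separates them. Nothing beyond the labels and the number of mice in the study describes how the replicates differ, and the p-values measure the spread between these retinas.

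The start regions of 6 members are shown, those of the 8 genes that varied together among the retinas for which a window was held: *Rpe65*, *Lrat*, *Rdh5* and *Rgr* of the visual cycle, and *Tyr* and *Dct* of melanin synthesis. RefSeq windows were held for 8 of the 10 members, all but *Ttr* and *Pmel*, in a table made on GRCm38.p6, and each window matched GRCm39 at 1 place, which gives the positions below. Each line runs 5′ to 3′ on the gene's strand, 280 bases from 250 before the start site, with capitals for every match on either strand to the letters CATGTG, an E-box, or GGATTA, a motif read by OTX and CRX factors (its reverse complement is TAATCC, that of CATGTG is CACATG). The lines cover chr3:159304568-159304847 on the plus strand for *Rpe65*, and on the minus strand chr3:82811252-82811531 for *Lrat*, chr10:128755137-128755416 for *Rdh5*, chr14:36770942-36771221 for *Rgr*, chr7:87142691-87142970 for *Tyr* and chr14:118289629-118289908 for *Dct*.
Rpe65: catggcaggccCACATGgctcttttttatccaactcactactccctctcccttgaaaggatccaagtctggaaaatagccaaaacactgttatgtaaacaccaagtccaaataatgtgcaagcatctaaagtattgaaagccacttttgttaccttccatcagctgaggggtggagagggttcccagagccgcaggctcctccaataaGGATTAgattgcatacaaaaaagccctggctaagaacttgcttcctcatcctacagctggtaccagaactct
Lrat: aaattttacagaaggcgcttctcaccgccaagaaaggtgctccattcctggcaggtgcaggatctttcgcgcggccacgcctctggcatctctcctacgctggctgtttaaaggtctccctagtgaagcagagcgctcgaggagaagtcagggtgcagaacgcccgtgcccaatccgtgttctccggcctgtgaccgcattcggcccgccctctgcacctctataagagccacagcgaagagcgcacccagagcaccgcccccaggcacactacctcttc
Rdh5: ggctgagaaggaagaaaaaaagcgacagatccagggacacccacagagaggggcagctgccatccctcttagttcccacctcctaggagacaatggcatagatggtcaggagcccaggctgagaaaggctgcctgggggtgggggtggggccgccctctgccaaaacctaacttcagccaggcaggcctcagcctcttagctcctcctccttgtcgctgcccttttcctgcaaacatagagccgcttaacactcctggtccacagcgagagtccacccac
Rgr: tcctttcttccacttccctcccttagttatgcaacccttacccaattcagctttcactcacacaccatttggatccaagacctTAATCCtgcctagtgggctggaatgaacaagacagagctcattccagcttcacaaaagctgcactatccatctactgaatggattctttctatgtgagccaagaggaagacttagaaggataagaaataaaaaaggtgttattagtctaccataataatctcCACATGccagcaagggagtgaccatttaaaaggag
Tyr: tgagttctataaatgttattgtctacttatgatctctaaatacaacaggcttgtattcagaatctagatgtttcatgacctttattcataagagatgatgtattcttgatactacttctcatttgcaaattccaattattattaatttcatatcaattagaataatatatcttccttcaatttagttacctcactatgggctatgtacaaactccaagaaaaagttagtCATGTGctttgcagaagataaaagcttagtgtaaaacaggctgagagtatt
Dct: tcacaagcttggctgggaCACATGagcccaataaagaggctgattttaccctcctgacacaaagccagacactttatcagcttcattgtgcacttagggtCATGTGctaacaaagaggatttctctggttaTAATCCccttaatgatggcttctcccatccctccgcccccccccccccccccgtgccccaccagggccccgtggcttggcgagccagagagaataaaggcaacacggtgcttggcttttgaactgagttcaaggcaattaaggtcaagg
CATGTG stood at -239 from the *Rpe65* start site, at -5 for *Rgr*, at -21 for *Tyr* and at -232 and -150 for *Dct*, and 14.2% of all 32851 promoter windows held it. GGATTA stood at -42 for *Rpe65*, -167 for *Rgr*, -119 for *Dct* and -227 for *Best1*, against 7.06% of all windows. CACGTG, the palindromic E-box, which 7.15% of windows held, was in none of the 8 windows, and *Lrat*, *Rdh5* and *Rrh* held none of the 3 motifs. Positions are counted from the start site of each RefSeq window, which can differ from the start in the gene spans given below. The line shown for *Rgr* lies wholly upstream of its span, chr14:36756866-36770921 on the minus strand. A match says only that these letters are present.

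The enzymes of the visual cycle came first. *Rpe65* (chr3:159304802-159330958 on GRCm39, plus strand) encodes the isomerase that makes 11-cis retinol from retinyl esters and is the defining enzyme of the pigment epithelium. It was at 7.84, 7.81 and 22.2 CPM in DMSO replicates 1, 2 and 3 and at 6.37 and 11.1 CPM in Sorbinil replicates 1 and 3. The groups overlapped, and the single DMSO value of replicate 3 lay above all others. The DMSO mean was 12.6 ± 8.29 CPM (SD, n = 3) and the Sorbinil mean 8.74 ± 3.35 CPM (SD, n = 2). On the log2 scale Sorbinil was at -0.52 relative to DMSO, with a standard error (SE) of 0.557.

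*Lrat* (chr3:82799886-82811288, minus strand) encodes lecithin retinol acyltransferase, which forms the retinyl esters that RPE65 uses. It was at 6.19, 5.35 and 14.7 CPM in the DMSO retinas and at 6.72 and 8.52 CPM in the Sorbinil retinas. *Lrat* was the only member whose lowest value was not in Sorbinil replicate 1, since DMSO replicate 2 was lower. *Rdh5* (chr10:128749385-128759341, minus strand) encodes the 11-cis retinol dehydrogenase, which completes the cycle. It was at 7.36, 7.27 and 17.4 CPM under DMSO and at 5.86 and 8.57 CPM under Sorbinil, again with DMSO replicate 3 above the rest. The start region shown above for *Rdh5* lies inside the gene span given here, so the window and the span place its start differently. *Rdh5* shares 3692 exonic bases with *Bloc1s1* on the same strand, so part of its counts is uncertain. *Bloc1s1*, a subunit of a complex of melanosome formation, was at 14.4, 14.5 and 16.1 CPM under DMSO and at 14.97 and 11.29 CPM under Sorbinil, without the 2.37-fold step that *Rdh5* took to DMSO replicate 3.

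The 2 opsins of the pigment epithelium differed from each other. *Rgr* (chr14:36756866-36770921, minus strand) encodes a photoisomerase opsin that is found in the pigment epithelium and in Müller glia. It was at 37.5, 31.0 and 79.0 CPM in the DMSO retinas and at 25.2 and 42.6 CPM in the Sorbinil retinas, the pattern of *Rpe65*. *Rrh* (chr3:129598057-129616236, minus strand) encodes peropsin, an opsin-like protein of the microvilli of the pigment epithelium. It was at 15.6, 14.4 and 16.1 CPM in the DMSO retinas and at 5.003 and 13.0 CPM in the Sorbinil retinas. *Rrh* varied little among the DMSO retinas, and its Sorbinil values lay below all 3 of them.

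*Rrh* was the only member whose groups did not overlap, 1 of 10 members in that direction, where 10.5% of all genes tested had both Sorbinil retinas below every DMSO retina. No member had both Sorbinil retinas above every DMSO retina, against 12.8% of all genes. The *Rrh* means were 15.4 ± 0.871 CPM (SD, n = 3) and 9.01 ± 5.67 CPM (SD, n = 2), and the spread of the Sorbinil pair came from replicate 1. Its log2 fold change was -0.77 (SE 0.397), with a 95% interval from -1.75 to 0.21, and its adjusted p in edgeR's quasi-likelihood test was 0.758. Without Sorbinil replicate 1 the log2 fold change was -0.23.

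**Figure D1:**
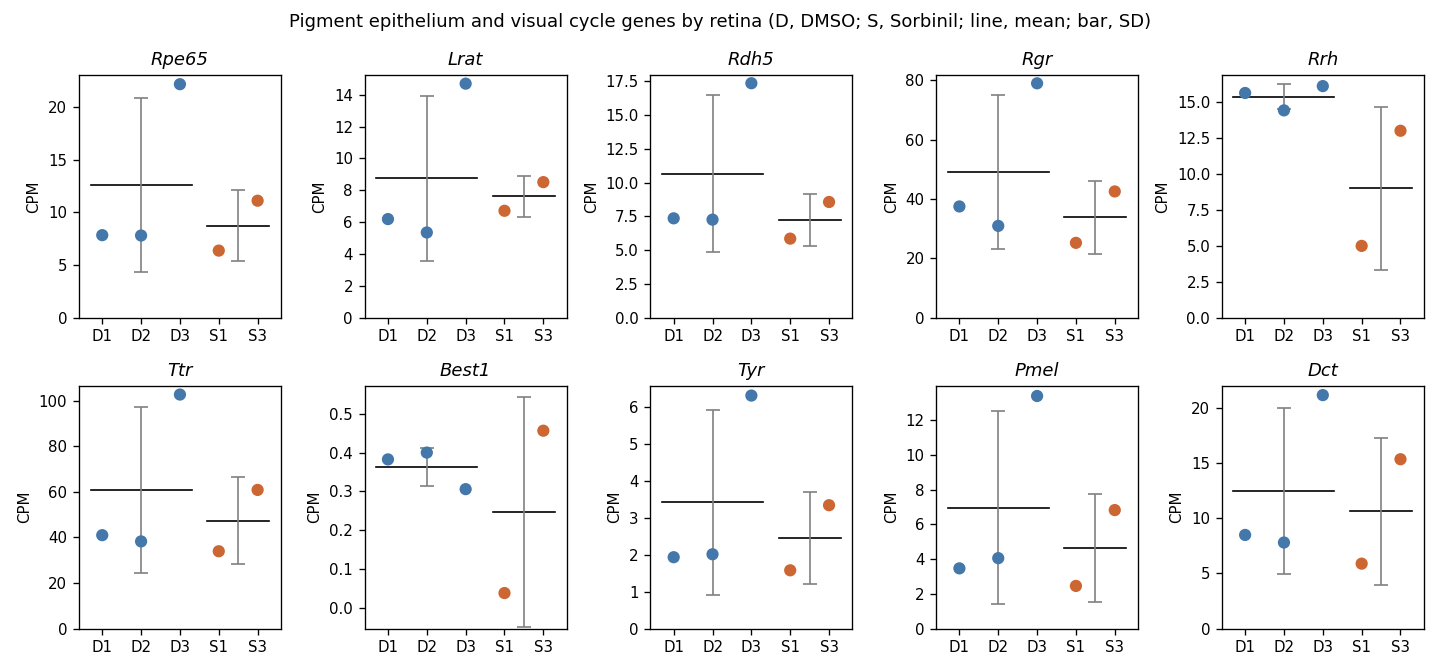
CPM of each of the 10 genes in every retina, with 1 panel and 1 linear axis per gene, DMSO retinas D1 to D3 in blue and Sorbinil retinas S1 and S3 in orange; horizontal lines are group means and bars are SD. In 8 panels DMSO replicate 3 is at least 2-fold above the mean of the other DMSO retinas, while in the *Rrh* panel the 3 DMSO values lie between 14.4 and 16.1 CPM and Sorbinil replicate 1 is at 5.003 CPM.

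*Ttr* (chr18:20797253-20807467, plus strand) encodes transthyretin, a carrier of thyroid hormone and, with retinol-binding protein, of retinol, which the pigment epithelium makes in large amounts. Counted per kilobase of exon it had the highest level of the 10 members in both groups, 31.8 CPM per kilobase under DMSO and 24.9 under Sorbinil, followed by *Rgr* at 10.3 and 7.09. By mean in the DMSO retinas the order went on with *Rpe65*, *Pmel*, *Rrh*, *Dct*, *Rdh5*, *Lrat*, *Tyr* and *Best1*, with means per kilobase of 6.49, 3.04, 2.61, 2.12, 2.04, 1.63, 0.481 and 0.141 CPM. The ranges over the DMSO retinas were apart between *Ttr* and *Rgr*, between *Lrat* and *Tyr* and between *Tyr* and *Best1*, and every other pair of neighbours overlapped. The place of *Rdh5* is uncertain, because 3692 of the 5221 exonic bases used as its length are shared with *Bloc1s1*. Without the shared bases both its length and its counts could be lower, so which way its place would move is not known. Within single retinas *Ttr* was above *Rgr*, and *Rgr* above *Rpe65*, in 5 of 5. *Ttr* was at 41.0, 38.3 and 103 CPM in the DMSO retinas and at 34.0 and 60.9 CPM in the Sorbinil retinas.

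*Best1* (chr19:9962538-9978997, minus strand) encodes bestrophin 1, a chloride channel of the basolateral membrane of the pigment epithelium, and had the lowest level of the 10 members, with 0.0959 CPM per kilobase under Sorbinil. DMSO replicates 1, 2 and 3 held 37, 32 and 17 counts of it, and Sorbinil replicates 1 and 3 held 2 and 31. *Best1* was the only member that was not highest in DMSO replicate 3, where it was at 0.306 CPM against 0.383 and 0.400 CPM in the other DMSO retinas. Its 2 counts in Sorbinil replicate 1 were 0.103 times the level expected from the 86 counts of the DMSO retinas, with an exact 95% interval of 0.0122 to 0.383 that covers counting error only, while Sorbinil replicate 3 was above every DMSO retina at 0.457 CPM.

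The 3 genes of melanin synthesis were also highest in DMSO replicate 3. *Tyr* (chr7:87073979-87142720, minus strand) encodes tyrosinase, the rate-limiting enzyme of melanin synthesis, and was at 1.93, 2.01 and 6.32 CPM under DMSO and at 1.58 and 3.34 CPM under Sorbinil. *Dct* (chr14:118250202-118289656, minus strand) encodes dopachrome tautomerase, a later enzyme of the same pathway, and was at 8.48, 7.79 and 21.1 CPM under DMSO and at 5.88 and 15.3 CPM under Sorbinil. *Pmel* (chr10:128540064-128556107, plus strand) encodes the protein of the fibrils on which melanin is laid down, and was at 3.46, 4.05 and 13.4 CPM under DMSO and at 2.45 and 6.82 CPM under Sorbinil. In each of the 3 genes Sorbinil replicate 3 lay between DMSO replicate 3 and the other DMSO retinas, and Sorbinil replicate 1 lay below all others. Sorbinil replicate 3 was 2.12-fold above Sorbinil replicate 1 for *Tyr*, 2.61-fold for *Dct* and 2.78-fold for *Pmel*, beside 2.60-fold for *Rrh*, 1.79-fold for *Ttr*, 1.74-fold for *Rpe65*, 1.69-fold for *Rgr*, 1.46-fold for *Rdh5* and 1.27-fold for *Lrat*.

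Sorbinil was compared with DMSO to find genes whose level in the injured retina differed under aldose reductase inhibition. A gene was called where the unadjusted p was at most 0.1 and the difference at least 2-fold. Of the 10 members 0 were called lower and 0 higher, against 1.35% of the 14992 genes called lower and 0.36% called higher. None of the members had an unadjusted p of at most 0.05 in edgeR's quasi-likelihood test, where 5.01% of all genes did, and their adjusted p ran from 0.758 to 0.898. Over all genes 0 had an adjusted p under 0.05 by this test (751 had an unadjusted p under 0.05), against 21 by DESeq2's Wald test and 14 by edgeR's likelihood ratio test.

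All 10 fold changes pointed lower in Sorbinil, from -0.77 for *Rrh* to -0.20 for *Lrat* on the log2 scale, with a median of -0.52 beside -0.0078 over all genes tested. *Pmel* was at -0.58, *Rdh5* at -0.56, *Rgr* at -0.53, *Best1* at -0.51, *Tyr* at -0.46, *Ttr* at -0.35 and *Dct* at -0.23. The 95% interval of each of the 10 reached past a log2 change of -1, a 2-fold lower level, and included 0. The exact two-sided permutation test over the 10 groupings of the retinas gave p between 0.1 and 1 for the members, and 0.1, the smallest p it can give, for *Rrh* alone. The shared sign rested on single retinas: without DMSO replicate 3 the member median was 0.21, with 6 of the 10 genes above 0, and without Sorbinil replicate 1 it was -0.0088. With either of these retinas left out, 0 members were called.

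**Figure D2:**
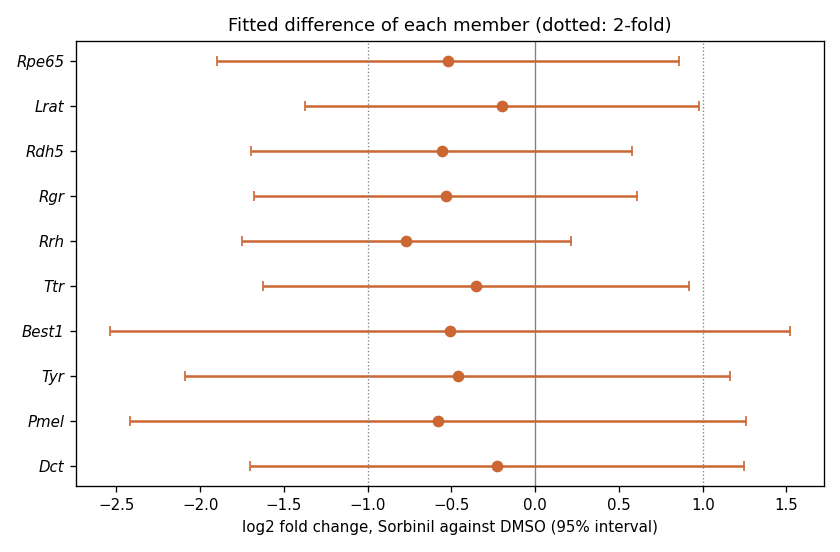
Log2 fold change of each gene, Sorbinil minus DMSO, with its 95% interval from edgeR's quasi-likelihood fit over all genes. All 10 intervals include 0 and all 10 point estimates are below it, from -0.77 for *Rrh* to -0.20 for *Lrat*.

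The DMSO retinas differed widely from each other in most of these genes. DMSO replicate 3 exceeded the mean of DMSO replicates 1 and 2 by 3.56-fold for *Pmel*, 3.20-fold for *Tyr*, 2.83-fold for *Rpe65*, 2.60-fold for *Dct*, 2.59-fold for *Ttr*, 2.55-fold for *Lrat*, 2.37-fold for *Rdh5* and 2.31-fold for *Rgr*, with 1.07-fold for *Rrh* and 0.782 times for *Best1*. The SD of log2 CPM over the 3 DMSO retinas was 0.71 to 1.07 in those 8 genes and 0.08 in *Rrh*, beside a median of 0.13 over all genes tested. Of the 10 members 9 were highest in DMSO replicate 3 and 9 were lowest in Sorbinil replicate 1, while 10.8% and 39.2% of all genes tested were. The summed level of the 10 members was 130, 118 and 293 CPM in the DMSO retinas and 93.1 and 171 CPM in the Sorbinil retinas.

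**Figure D3:**
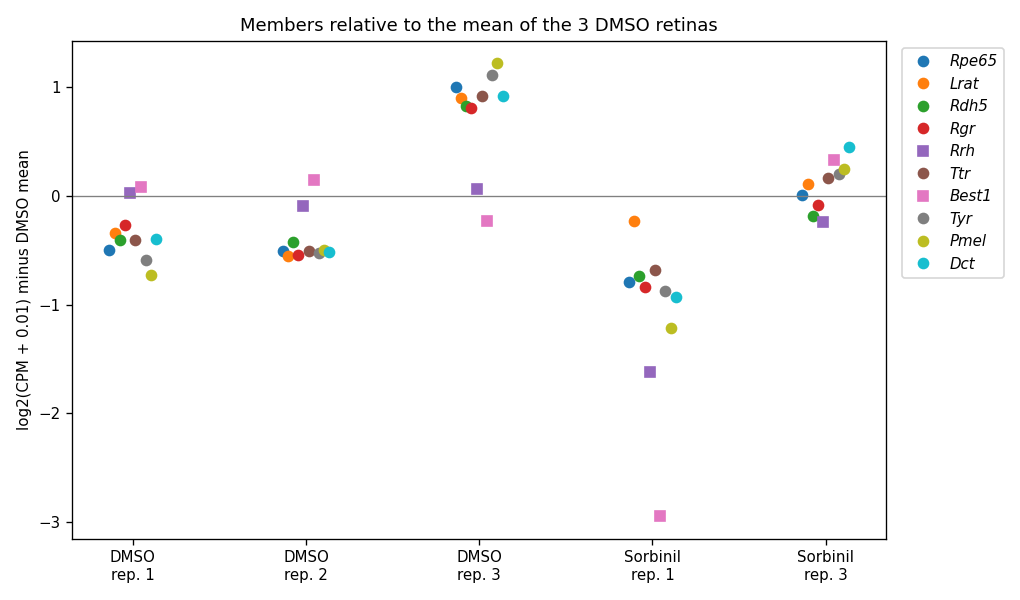
Log2 level of each gene in every retina, relative to the mean of the 3 DMSO retinas on the log2 scale. DMSO replicate 3 is 0.81 to 1.22 above that mean in 8 genes, and Sorbinil replicate 1 is lowest in 9 of the 10.

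Over the 5 retinas the ratios of the other genes of the 8 to *Rpe65* varied by at most 1.60-fold. The 8 genes were grouped by their step to DMSO replicate 3 in these same values, so part of this likeness was built in. The ratio of *Ttr* to *Rpe65* in CPM lay between 4.64 and 5.48 in the 5 retinas, a 1.18-fold range, although *Rpe65* itself ranged from 6.37 to 22.2 CPM. *Rdh5* lay between 0.772 and 0.939 of *Rpe65*, *Tyr* between 0.247 and 0.301, each a 1.22-fold range, and *Rgr* between 3.57 and 4.79. *Dct*, *Lrat* and *Pmel* had wider ranges of 1.497-fold, 1.59-fold and 1.60-fold. The ratio of *Rrh* to *Rpe65* spanned 0.727 to 2.00, a 2.74-fold range, and that of *Best1* an 8.59-fold range that rests on few counts. These ratios compare retinas with each other and do not rank the genes, because the counts are not set per length.

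**Figure D4:**
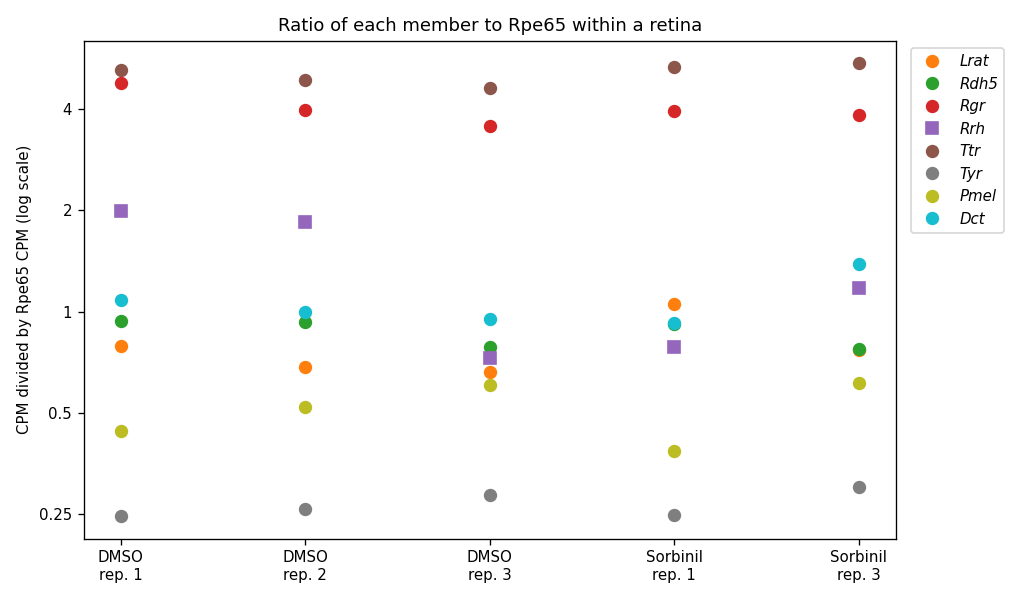
CPM of 8 genes divided by the CPM of *Rpe65* in the same retina, on a log axis, with *Best1* left out for its low counts. Ratios of *Ttr*, *Rdh5* and *Tyr* vary by at most 1.22-fold over the 5 retinas, while the squares of *Rrh* run from 0.727 to 2.00.

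Likeness of pattern was measured as the Euclidean distance between log2 CPM profiles over the 5 retinas, each centred on its own mean. Of 14991 genes ranked by distance to *Rpe65*, *Ttr* was number 1 at 0.195, *Tyr* number 6, *Rdh5* number 7, *Rgr* number 9, *Dct* number 23, *Lrat* number 28 and *Pmel* number 34, beside a median distance of 1.52 over all genes. *Rrh* was number 2308 and *Best1* number 14709. The 5 genes outside the set most like *Rpe65* were *Cltrn*, *Thbs1*, *Fgfr2*, *Cldn1* and *Ermn*, and those most like *Ttr* were *Thbs1*, *Fgfr2*, *Nccrp1*, *Car12* and *Rbm47*. *Thbs1*, which encodes the secreted glycoprotein thrombospondin 1, was at 9.31, 8.92 and 22.8 CPM under DMSO and at 7.02 and 13.7 CPM under Sorbinil. *Cltrn*, which encodes the membrane protein collectrin, was at 2.12, 2.18 and 5.76 CPM and at 1.56 and 2.62 CPM. The profiles share libraries and only 5 points, so these distances are a description.

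The genes nearest to *Rrh*, a list made after its values were seen, were *Mpp3*, *Smtn*, *Pcdha5*, *Oprl1* and *Heph*, at distances of 0.102 to 0.148. All 5 of them, like *Rrh*, had both Sorbinil retinas below every DMSO retina, where 10.5% of all genes tested did, and none was called. Because they were picked for likeness to *Rrh* in these same retinas, this follows from the choice and adds nothing to the *Rrh* result. *Mpp3*, which encodes a membrane scaffold protein, was at 22.2, 18.7 and 21.9 CPM under DMSO and at 6.96 and 18.2 CPM under Sorbinil. *Rrh* was 1.62 below the DMSO mean in Sorbinil replicate 1 on the log2 scale, beside -1.46 for the median Müller glia marker there and -0.86 for the median of the 10 members, and the part of that retina's cell makeup in the *Rrh* value was not tested.

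Few other genes of the visual cycle and of retinoid handling were at least 2-fold higher in DMSO replicate 3. Of 19 other such genes, all tested, 0 were called lower and 0 higher, with a median log2 fold change of -0.06. Only *Rdh9* was at least 2-fold higher in DMSO replicate 3 than the mean of the other DMSO retinas, and it held no counts in 2 retinas. *Stra6* fell short of that cut with a 1.81-fold step, beside a list median of 1.06-fold. It was at 10.4, 10.8 and 19.1 CPM under DMSO and at 5.57 and 10.7 CPM under Sorbinil. Both genes are named after their values were seen. The list's most abundant genes were *Rbp3*, the retinoid carrier that photoreceptors secrete, at 11530, 12720 and 14040 CPM under DMSO and 20200 and 10460 CPM under Sorbinil, and *Abca4*, a transporter of retinal in photoreceptor outer segments, at 2051, 2483 and 2723 CPM and at 4169 and 2158 CPM. Both were highest in Sorbinil replicate 1, where 9 of the 10 members were lowest.

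Of 29 other genes of the pigment epithelium, many of which neural cells of the retina also use, 0 were called lower and 0 higher, with a median log2 fold change of -0.32. The 5 that were at least 2-fold higher in DMSO replicate 3, named after their values were seen, were *Slc16a8*, *Krt8*, *Slc6a20a*, *Ermn* and *Slc26a7*. *Slc16a8*, which encodes a lactate transporter of the basolateral membrane of the pigment epithelium, was at 4.46, 3.48 and 11.9 CPM under DMSO and at 2.61 and 5.80 CPM under Sorbinil, a 3.00-fold step to DMSO replicate 3. *Krt8*, a keratin of simple epithelia, took a 2.95-fold step, from 0.434 and 0.638 to 1.58 CPM. The most abundant genes of the list took no such step: *Cst3*, the protease inhibitor cystatin C, was at 535, 626 and 700 CPM in the DMSO retinas, and *Ctsd*, the lysosomal protease cathepsin D, at 468, 498 and 472 CPM. Under Sorbinil *Cst3* was at 805 and 523 CPM and *Ctsd* at 448 and 411 CPM.

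Of 23 other pigment and melanosome genes 0 were called lower and 0 higher, with a median log2 fold change of -0.19. Those at least 2-fold higher in DMSO replicate 3, chosen after their values were seen, were *Gpr143* at 3.61-fold, *Oca2* at 3.45-fold, *Tyrp1* at 2.74-fold, *Slc45a2* at 2.18-fold, *Mlana* at 2.13-fold and *Mlph* at 2.03-fold. *Tyrp1*, an enzyme of melanin synthesis related to tyrosinase, was at 2.78, 3.79 and 9.02 CPM under DMSO and at 2.11 and 5.57 CPM under Sorbinil. *Oca2*, which encodes a melanosome membrane protein, was at 1.19, 1.34 and 4.36 CPM and at 1.31 and 2.06 CPM. The 2 most abundant genes of the list took no 2-fold step. *Myo5a*, which encodes a motor protein that moves melanosomes and other cargo, was at 217, 193 and 191 CPM under DMSO and 146 and 258 CPM under Sorbinil, and *Lyst* at 130, 152 and 166 CPM and at 250 and 191 CPM. *Lyst*, a regulator of lysosome size, had an unadjusted p of 0.0206 and an adjusted p of 0.758 in edgeR's quasi-likelihood test, with a log2 fold change of 0.56 that was under 2-fold and was not called.

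Markers of tissue that lies beside the pigment epithelium were set beside this spread. Of the melanocyte markers 6 of 7 were tested and 0 called, *Pax3* had counts in only 1 retina, and the summed level was 18.7 to 20.4 CPM in the DMSO retinas and 11.9 and 27.9 CPM in the Sorbinil retinas. Most of the DMSO sums was *Kit* and *Ednrb*, at 7.27, 7.34 and 5.76 CPM and at 7.61, 8.01 and 6.23 CPM in DMSO replicates 1 to 3. *Mlana* and *Sox10* of that list were at least 2-fold higher in DMSO replicate 3, at 0.576 and 0.972 CPM there, and add little to the sum. These genes, too, are named after their values were seen. The choroid stroma markers summed to 21.2, 25.5 and 31.4 CPM under DMSO and 12.7 and 34.6 CPM under Sorbinil. Most of the DMSO sums was *Pcolce*, at 13.2, 15.9 and 18.8 CPM. Of the 8 tested, 3 were at least 2-fold higher in DMSO replicate 3, *Col1a1* at 2.93-fold, *Dcn* at 2.91-fold and *Col3a1* at 2.06-fold. The list median of that step was 1.65-fold, and these 4 genes are named after their values were seen. Only *Mgp*, 1 of the 8, was called lower under Sorbinil (log2 fold change -1.64, SE 0.336, edgeR adjusted p 0.758). The endothelial markers went the other way in DMSO replicate 3, with a sum of 464, 413 and 297 CPM under DMSO and 160 and 402 CPM under Sorbinil, and 5 of 9 tested, *Cdh5*, *Tek*, *Tie1*, *Cldn5* and *Emcn*, were called lower under Sorbinil, where 1.35% of all genes were, each with an edgeR adjusted p of 0.758. Most of that sum was *Kdr* and *Flt1*, and the list does not separate vessels of the choroid from those of the retina. *Plvap* of the list, named after its values were seen, was not lower in DMSO replicate 3, at 2.81, 2.88 and 3.19 CPM under DMSO. Relative to the DMSO mean, the median log2 level of the endothelial markers was -2.10 in Sorbinil replicate 1, beside -0.76 in Sorbinil replicate 3. The 8 ciliary margin markers had 0 called and 0 at least 2-fold higher in DMSO replicate 3. How much of the spread in the 8 members came from pigment epithelium carried along with the retina was not tested.

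**Figure D5:**
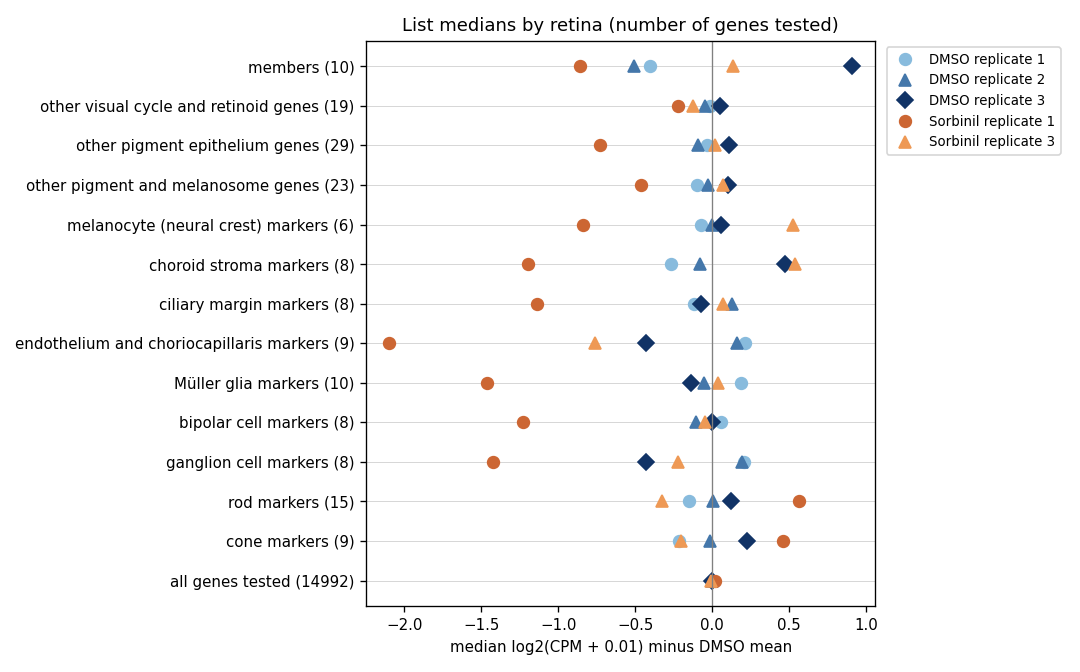
Median log2 level of each gene list in every retina relative to the mean of the DMSO retinas. The 10 members are at 0.91 in DMSO replicate 3 and -0.86 in Sorbinil replicate 1, while the 15 rod markers are at 0.12 and 0.56 and the 10 Müller glia markers at -0.13 and -1.46.

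The neural markers gave the frame in which the members varied. In DMSO replicate 3 the median log2 level relative to the DMSO mean was 0.91 for the members, 0.12 for rod markers, 0.23 for cone markers, -0.13 for Müller glia markers and 0.0012 for bipolar cell markers. None of these 4 lists had a step of the members' size in that retina. Ganglion cell markers were at -0.43, endothelial markers at -0.43 and choroid stroma markers at 0.47 in the same retina. In Sorbinil replicate 1 the Müller glia markers, at -1.46, and the bipolar cell markers, at -1.23, lay further from the DMSO mean than the members, at -0.86. In Sorbinil replicate 3 the members were at 0.14, with rod markers at -0.32 and Müller glia markers at 0.04. None of the 15 rod, 9 cone, 10 Müller glia, 8 bipolar or 8 ganglion cell markers was called between the treatments.

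Reads on the opposite strand could add to some members. Exons of *Lrat*, *Rrh* and *Ttr* overlap the antisense genes *Rbm46os*, *Gm36130* and *Gm16090* by 448, 495 and 70 bases, and exons of *Pmel* overlap *Dgka* by 442 bases and *Cdk2* by 34. The labels describe libraries that keep strand, but whether the counting used it is not given in the sources used here. *Dgka* and *Cdk2* had on average 175 and 102 counts per retina, beside 129 to 744 counts for *Pmel*.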

How the data were processed

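Whole-retina RNA of 5 mice (3 DMSO, 2 Sorbinil) was sequenced. The authors trimmed the reads, aligned them to GRCm39 with CLC Genomics Workbench, and the deposited values are raw integer counts per gene. The annotation release, the treatment of reads on several genes and the use of strand are not given in the sources used here. Columns were assigned by sample name, with 0 value columns left out, and the removed Sorbinil replicate was not analysed here. Chi-square tests of counts between retinas gave at least 24.6 per degree of freedom, so no library had been deposited a second time. The counts, 56096541 to 90288552 per retina, carry no molecular identifiers, so counting intervals are a lower limit of the error.

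The tests used edgeR 4.0.16 in R 4.3.3, with filterByExpr by group (minimum count 10), TMM scaling, glmQLFit and glmQLFTest without covariates, Benjamini-Hochberg adjustment over all genes tested, and calls at the threshold of the study, an unadjusted p of at most 0.1 and at least 2-fold. Single genes had an exact permutation test on log2(CPM + 0.01). The code was tested on simulated data. Replicate numbers 1 and 3 occur in both groups, but nothing pairs the mice, so the main design has no block. Alternatives were DESeq2 1.42.0, other filters, scalings and thresholds, a replicate block, and each retina left out. Annotation was GENCODE for GRCm39. The members and gene lists were chosen with earlier results of these data known. Some genes stand in several of the lists, such as *Rdh10*, *Rlbp1*, *Stra6*, *Mitf*, *Mlana* and *Wfdc1*, so the lists are not separate sets. Genes named were the members, genes called in a list, the 2 most abundant of 3 lists, and the 5 nearest to *Rpe65* and *Ttr*; other named genes were chosen after their values were seen.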

Additional observations from a re-analysis of the deposited data

How the results depend on the processing

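No member was called under any alternative except 1. Without Sorbinil replicate 3, where 1 retina stood against 3 and was assumed to vary like them, 2 were called lower: *Rrh* at -1.62 (edgeR adjusted p 0.00461) and *Best1* at -3.20 (adjusted p 0.0184, on 2 counts), among 2903 genes called in all. The member median ranged from -1.02 to 0.21 with retinas left out, and was between -0.66 and -0.51 under the other alternatives. The directions turned without DMSO replicate 3 for *Rpe65* (0.16), *Lrat* (0.40), *Ttr* (0.26), *Tyr* (0.32), *Pmel* (0.31) and *Dct* (0.39), and without Sorbinil replicate 1 for *Ttr* (0.02), *Best1* (0.33) and *Dct* (0.32). The lowest and highest log2 fold changes with 1 retina left out were -0.97 and 0.16 for *Rpe65*, -0.45 and 0.40 for *Lrat*, -0.85 and -0.02 for *Rdh5*, -0.96 and -0.01 for *Rgr*, -1.62 and -0.23 for *Rrh*, -0.83 and 0.26 for *Ttr*, -3.20 and 0.33 for *Best1*, -1.09 and 0.32 for *Tyr*, -1.49 and 0.31 for *Pmel* and -1.07 and 0.39 for *Dct*. Members called ranged from 0 to 2 and genes called from 164 to 2903 in those fits, beside 257 with all retinas.

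The count of genes called was 408 with no filter, 148 with at least 10 counts in every retina (*Best1* left out), 168 at an unadjusted p of at most 0.05, 1696 with no fold limit and 0 at an adjusted p of at most 0.1, and the cause was not tested. With the replicate block, which the labels do not establish as a pairing (correlations of deviations -0.198 and -0.0889), 203 genes and 0 members were called, the member median was -0.66, and *Rgr* (-0.73, p 0.044) and *Rrh* (-0.97, p 0.0411) had an adjusted p of 1. Scaling by library size alone moved the median of all genes to -0.11 and the member median to -0.54. With 2 Sorbinil retinas, a 2-fold lower level lay within the interval of every member, and *Best1* is limited by its counts.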
